A study of Homo sapiens with 12 samples.

Results

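The genes described here are 9 lineage factors and surface antigens known from the Müllerian duct and from carcinomas of the ovary and fallopian tube: *PAX8*, *WT1*, *SOX17*, *EMX2*, *MECOM*, *MSLN*, *MUC16*, *FOLR1* and *CDH6*. They were taken by symbol from the table of gene counts, where each symbol had 1 row, so they are 9 of the 57187 genes counted. Their levels were followed through 12 RNA sequencing libraries of 4 human carcinoma lines, 2 derived from breast (MDA-MB-231, HCC1954) and 2 from ovary (OVCAR8, SKOV3). For each of them there was 1 library of control cells, 1 of cells that stably express wild-type *SIVA* (*SIVA-WT*) and 1 of cells that stably express the *SIVA-D160N* mutant. *SIVA* encodes an apoptosis-related protein. The transfectants carried the coding sequence behind a CMV promoter, were selected with hygromycin and were polyclonal, whereas the sample labels call the controls parental and untreated and the study's supplement also calls them empty vector. In the study's other assays MDA-MB-231 was a luciferase-expressing version of that line.

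The Müllerian duct is the embryonic tube that forms the fallopian tube, the uterus and the upper vagina. Its epithelium is laid down under homeobox and paired-box transcription factors, several of which stay on in the secretory cells of the adult fallopian tube. High-grade serous carcinoma, the most common ovarian carcinoma, resembles those cells. Pathologists therefore use PAX8 and WT1 to tell carcinomas of the ovary from those of the breast, and the antigens MUC16, mesothelin, folate receptor alpha and cadherin 6 are measured in blood or targeted with antibodies in the clinic. The breast lines serve here as cells of another lineage.

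Start-site sequences are shown for 3 of the members whose promoters were matched, chosen for contrasting patterns over the lines. RefSeq promoters, each 300 bases long with 250 bases before and 50 after the start of the gene, were matched for 5 of the 9 members. The 3 printed are those of *PAX8*, 1 of the 2 members with every ovarian library above every breast library, *MUC16*, which was highest in a breast line, and *MECOM*, which was high in 3 lines and without a count in the other. CG dinucleotides are in capitals, and each sequence reads 5′ to 3′ on the strand of its gene, which is the minus strand of GRCh38.p14 for each of the 3.
PAX8, chr2:113278872-113279171: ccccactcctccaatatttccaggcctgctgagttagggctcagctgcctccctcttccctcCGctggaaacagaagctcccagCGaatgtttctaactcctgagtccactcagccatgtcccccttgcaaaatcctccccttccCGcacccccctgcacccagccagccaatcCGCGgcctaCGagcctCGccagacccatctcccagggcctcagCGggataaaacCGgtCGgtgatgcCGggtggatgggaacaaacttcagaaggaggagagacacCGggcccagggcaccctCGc
MUC16, chr19:9065702-9066001: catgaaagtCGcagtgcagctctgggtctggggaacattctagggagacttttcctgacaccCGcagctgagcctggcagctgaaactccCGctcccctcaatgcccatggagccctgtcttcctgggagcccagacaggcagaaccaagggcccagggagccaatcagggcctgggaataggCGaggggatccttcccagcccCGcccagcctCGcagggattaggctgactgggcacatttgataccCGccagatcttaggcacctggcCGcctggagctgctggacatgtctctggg
MECOM, chr3:169663663-169663962: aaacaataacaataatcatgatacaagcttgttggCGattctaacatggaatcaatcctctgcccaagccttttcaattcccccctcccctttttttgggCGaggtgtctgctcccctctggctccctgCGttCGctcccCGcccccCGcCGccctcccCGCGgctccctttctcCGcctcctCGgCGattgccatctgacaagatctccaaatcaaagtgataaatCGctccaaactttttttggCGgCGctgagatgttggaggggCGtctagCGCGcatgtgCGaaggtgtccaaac

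The *PAX8* promoter held 13 CG dinucleotides, that of *MUC16* 8 and that of *MECOM* 19, where the median of 35116 RefSeq promoters was 14. The promoters of *WT1* and *EMX2*, which were matched but are not printed, held 21 each. On either strand, the CCAAT box was present in the *PAX8*, *MUC16* and *EMX2* windows and in 34.6% of all promoters of the same length. The letters GGGCGG, the core of a GC box, were in the windows of *WT1*, *MUC16*, *EMX2* and *MECOM* and in 45.0% of all promoters. TATAAA was in none of the 5 windows and in 11.5% of all promoters. These are descriptions of letters in a window and were not tied to any measurement of binding.

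Total counts per library ran from 35791455 to 45890398, and none of the 66 possible pairings of libraries was identical. Levels are given as CPM, the counts of a gene per 1000000 counts of its library, scaled with edgeR's TMM factors. A limit of 3 counts corresponded to between 0.0661 and 0.0850 CPM, and this limit covers counting error only. *SIVA1*, the transfected gene, was lowest in the control library of each line and was without counts in the HCC1954 control. The 3 libraries of a line stand for 3 conditions, so the spread given for a line includes any effect of transfection, and it is not a spread between separate cultures of one condition. In bulk RNA, fewer expressing cells and less RNA per cell cannot be told apart.

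Taken line by line, SKOV3 had more than 3 counts of all 9 members in each of its 3 libraries, HCC1954 of 6, and MDA-MB-231 and OVCAR8 of 4 each. The summed level of the 9 genes was 681 to 781 CPM in SKOV3, 154 to 188 CPM in OVCAR8, 124 to 170 CPM in HCC1954 and 64.6 to 91.3 CPM in MDA-MB-231. The 2 ovarian lines therefore did not share 1 profile. *MECOM*, *CDH6* and *EMX2* had 0 counts in every OVCAR8 library, and *SOX17* and *CDH6* had 0 counts in every MDA-MB-231 library. Of the 9 members, 8 passed edgeR's filter on low counts applied by line. *EMX2* did not pass. *SOX17* had more than 3 counts in SKOV3 alone, and *CDH6* had at most 23 counts in any library outside SKOV3, so a difference between SKOV3 and the other lines is built into their passing.

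**Figure D1:**
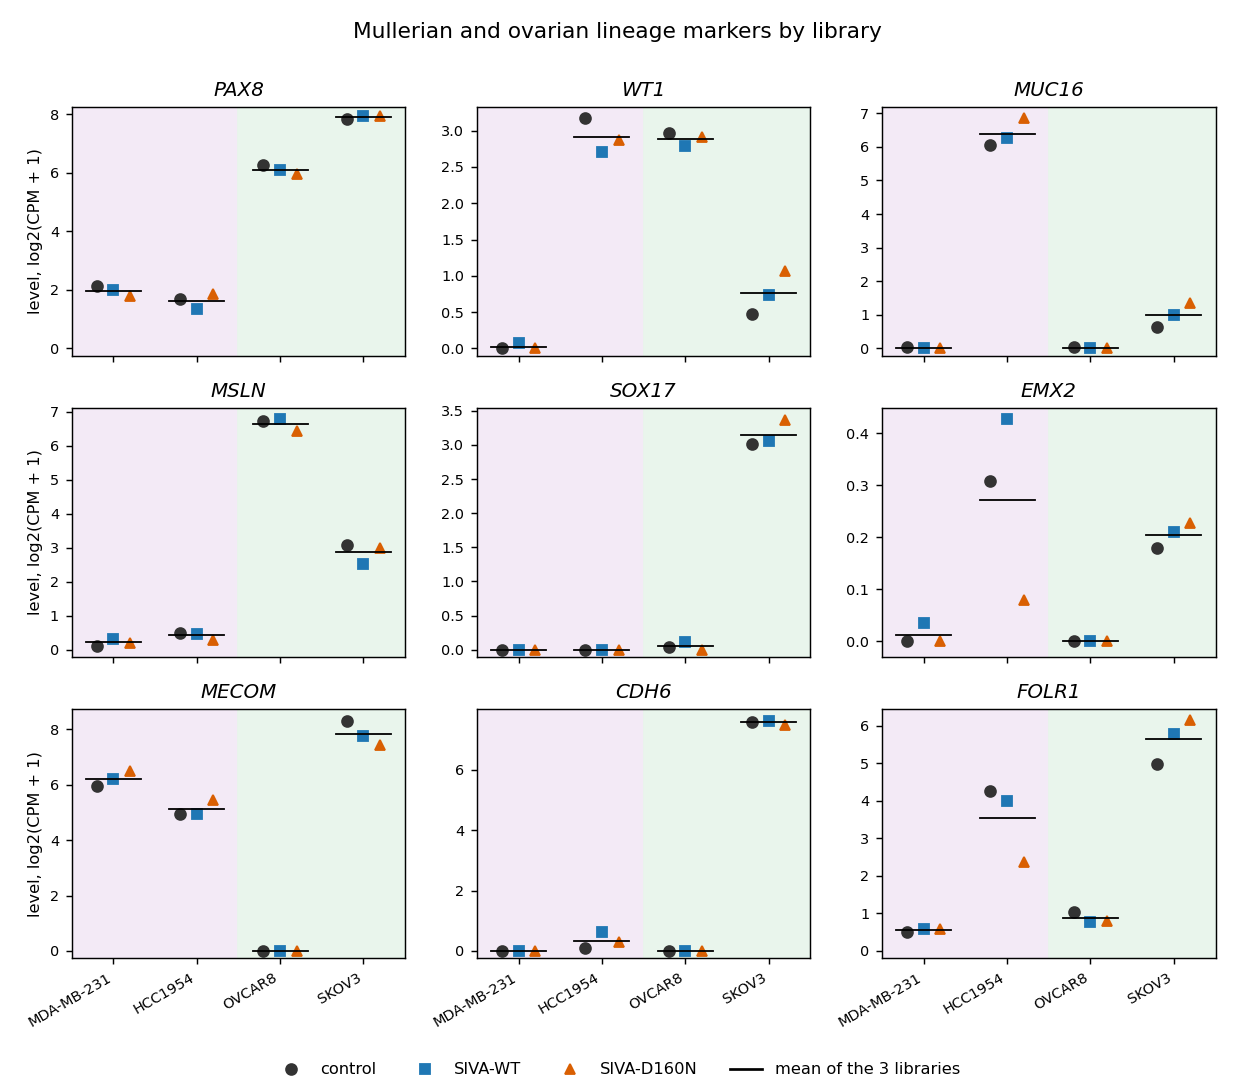
Level of each member in the 12 libraries, as log2(CPM + 1) on a separate vertical scale per gene, with the cell lines on the horizontal axis (breast lines on a purple and ovarian lines on a green ground), a symbol per condition and a bar at the mean of the 3 libraries of a line. All ovarian libraries lie above all breast libraries for PAX8 and MSLN, whereas the highest line is the breast line HCC1954 for MUC16 and the level of MECOM is 0 in OVCAR8.

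Among the transcription factors, *PAX8* had the most even separation. *PAX8* (ENSG00000125618, chromosome 2, 113215997 to 113278921 in GRCh38) encodes the paired-box factor of thyroid, kidney and Müllerian epithelium. In SKOV3 its level was 229 CPM in control, 242 CPM with *SIVA-WT* and 242 CPM with *SIVA-D160N*. In OVCAR8 it was 76.2, 67.4 and 61.1 CPM in the same order. The breast lines were far lower, with 3.41, 2.95 and 2.46 CPM in MDA-MB-231 and 2.24, 1.54 and 2.61 CPM in HCC1954. The lowest ovarian library thus stood 17.9-fold over the highest breast library, and the libraries of the 2 breast lines overlapped. SKOV3 was 3.49-fold over OVCAR8 (log2 difference 1.82, standard error 0.15, FDR 7.47e-07), and OVCAR8 was 23.2-fold over MDA-MB-231 (log2 difference 4.51, standard error 0.18, FDR 2.90e-09). The log2 difference between MDA-MB-231 and HCC1954 was 0.48 (FDR 0.0335), below the 1.5 used for a call. FDR here is the p-value from the edgeR quasi-likelihood test, adjusted by Benjamini-Hochberg over 19204 genes, and a gene was called at an FDR under 0.05 with a log2 fold change of 1.5 or more in size.

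*WT1* (ENSG00000184937, chromosome 11, 32387775 to 32435539) encodes a zinc-finger factor of the gonad, the kidney and the mesothelium that is kept in serous carcinoma. Its levels in HCC1954 were 8.003, 5.50 and 6.29 CPM in control, *SIVA-WT* and *SIVA-D160N*. OVCAR8 had 6.81, 5.90 and 6.51 CPM. These 2 lines, a breast and an ovarian line, overlapped, with a log2 difference of 0.05 (standard error 0.31, FDR 0.888). SKOV3 had 0.396, 0.671 and 1.10 CPM, from 15, 30 and 45 counts, and lay 8.86-fold under OVCAR8 (log2 difference 3.14, standard error 0.36, FDR 1.09e-05). In MDA-MB-231 the counts were 0, 2 and 0, so that SKOV3 was at least 9.56-fold higher.

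*SOX17* (ENSG00000164736) encodes an HMG-box factor of endoderm, vessels and tubal secretory cells that acts beside PAX8 in ovarian carcinoma. It was a SKOV3 gene in these libraries, at 7.08 CPM in control, 7.31 CPM with *SIVA-WT* and 9.35 CPM with *SIVA-D160N*, from 268, 327 and 382 counts. OVCAR8, the other ovarian line, had 1, 3 and 0 counts, and no breast library had a count. SKOV3 was at least 96.5-fold higher than OVCAR8. *SOX17* passed the filter by line through SKOV3, so this difference was built in and is given as a description.

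*EMX2* (ENSG00000170370, chromosome 10, 117542746 to 117549546) encodes a homeobox factor without which the urogenital tract does not form. It was close to the limit of counting everywhere, with 10, 15 and 2 counts in HCC1954, 5, 7 and 7 counts in SKOV3, 1 count in all of MDA-MB-231 and 0 counts in OVCAR8. No difference between lines could be tested for it in the fit by line. Its antisense neighbour *EMX2OS* had at most 2 counts in any library.

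*MECOM* (ENSG00000085276, chromosome 3, 169083507 to 169663712) encodes the zinc-finger factor EVI1, which is often gained in serous ovarian carcinoma. SKOV3 was highest, with 315 CPM in control, 214 CPM with *SIVA-WT* and 171 CPM with *SIVA-D160N*. MDA-MB-231 had 60.6, 71.8 and 88.2 CPM, and HCC1954 had 29.6, 30.04 and 42.5 CPM. OVCAR8 had 0 counts in each of its 3 libraries. The order was thus SKOV3, both breast lines, OVCAR8. SKOV3 was 3.17-fold over MDA-MB-231 (log2 difference 1.66, standard error 0.24, FDR 1.89e-04), and HCC1954 was at least 415-fold over OVCAR8 (FDR 6.03e-08). Without the control libraries the log2 difference between SKOV3 and MDA-MB-231 was 1.27, under the threshold of 1.5. MDA-MB-231 was 2.16-fold over HCC1954 (log2 difference 1.13, FDR 0.00198), also under that threshold.

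Among the surface antigens, *MSLN* was the other gene with complete separation by tissue. *MSLN* (ENSG00000102854, chromosome 16, 760734 to 768865) encodes mesothelin, a lipid-anchored protein of mesothelium and of many ovarian carcinomas. OVCAR8 had 104, 109 and 85.5 CPM in control, *SIVA-WT* and *SIVA-D160N*. SKOV3 had 7.53, 4.72 and 6.90 CPM. The breast lines had 0.405, 0.391 and 0.227 CPM in HCC1954 and 0.0881, 0.252 and 0.145 CPM in MDA-MB-231, from 4 to 17 counts per library. The lowest ovarian library was 11.6-fold over the highest breast library. Between the ovarian lines, OVCAR8 was 15.6-fold over SKOV3 (log2 difference 3.95, standard error 0.21, FDR 2.54e-08), which is the reverse of the order seen for *PAX8*. SKOV3 in turn was 18.7-fold over HCC1954 (log2 difference 4.20, standard error 0.28, FDR 9.26e-08).

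*MUC16* (ENSG00000181143, chromosome 19, 8848844 to 9065751) encodes the giant membrane mucin that carries the CA125 epitope and binds mesothelin. It was highest in a breast line. HCC1954 had 65.6 CPM in control, 74.9 CPM with *SIVA-WT* and 114 CPM with *SIVA-D160N*. SKOV3 had 0.555, 1.01 and 1.57 CPM, while MDA-MB-231 and OVCAR8 each had 1 count in 3 libraries. HCC1954 was 81.4-fold over SKOV3 (log2 difference 6.37, standard error 0.23, FDR 8.52e-10), and SKOV3 was at least 12.7-fold over OVCAR8. OVCAR8, which had the most *MSLN*, was thus at the limit of counting for the mucin that mesothelin binds.

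*FOLR1* (ENSG00000110195, chromosome 11, 72189709 to 72196323) encodes folate receptor alpha, which brings folate into the cell. SKOV3 had 30.7, 54.3 and 70.6 CPM in control, *SIVA-WT* and *SIVA-D160N*, and HCC1954 had 18.2, 15.0 and 4.22 CPM. OVCAR8 had 0.711 to 1.07 CPM and MDA-MB-231 had 0.418 to 0.507 CPM. SKOV3 was 4.16-fold over HCC1954 (log2 difference 2.14, standard error 0.45, FDR 0.00120), although without the *SIVA-D160N* libraries this difference was 1.34, below the threshold. HCC1954 was 14.9-fold over OVCAR8 (log2 difference 3.87, standard error 0.53, FDR 4.00e-05). The last neighbours in the order, OVCAR8 and MDA-MB-231, differed by 0.79 on the log2 scale (standard error 0.65, FDR 0.314).

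*CDH6* (ENSG00000113361, chromosome 5, 31193686 to 31329146) encodes a cadherin of the fetal kidney and of ovarian and renal carcinoma. SKOV3 had 190 CPM in control, 196 CPM with *SIVA-WT* and 179 CPM with *SIVA-D160N*. OVCAR8 and MDA-MB-231 had 0 counts in every library, and HCC1954 had 3, 23 and 8 counts. SKOV3 was 683-fold over HCC1954 (log2 difference 9.41, standard error 0.36) and at least 2295-fold over OVCAR8. *CDH6* passed the filter by line through SKOV3, so these differences were built in and are given as descriptions.

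Levels can be set against each other between genes only per length. Per kilobase of annotated exon, SKOV3 had *FOLR1* at 32.4, *PAX8* at 32.3, *MECOM* at 25.2 and *CDH6* at 15.1 CPM per kilobase as line means, with *SOX17* at 3.37 and *MSLN* at 2.47. OVCAR8 had *MSLN* at 38.5 and *PAX8* at 9.26 CPM per kilobase, and every other member was under 1. HCC1954 had line means of 7.79 for *FOLR1*, 3.68 for *MECOM* and 1.92 for *MUC16*. Its libraries differed in order, since with *SIVA-D160N* *MECOM* was at 4.58, *FOLR1* at 2.64 and *MUC16* at 2.58 CPM per kilobase, while *FOLR1* was highest in control and *SIVA-WT*. In MDA-MB-231 only *MECOM*, at 7.94 CPM per kilobase, was over 1. The line mean of *MUC16*, which has the longest exons of the members, came to 84.9 CPM in HCC1954, above that of *FOLR1* at 12.5 CPM before length was taken into account. Exon lengths were read from an annotation lifted to GRCh37 and counted all exons of a gene, so the order of close values depends on the transcripts used.

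**Figure D2:**
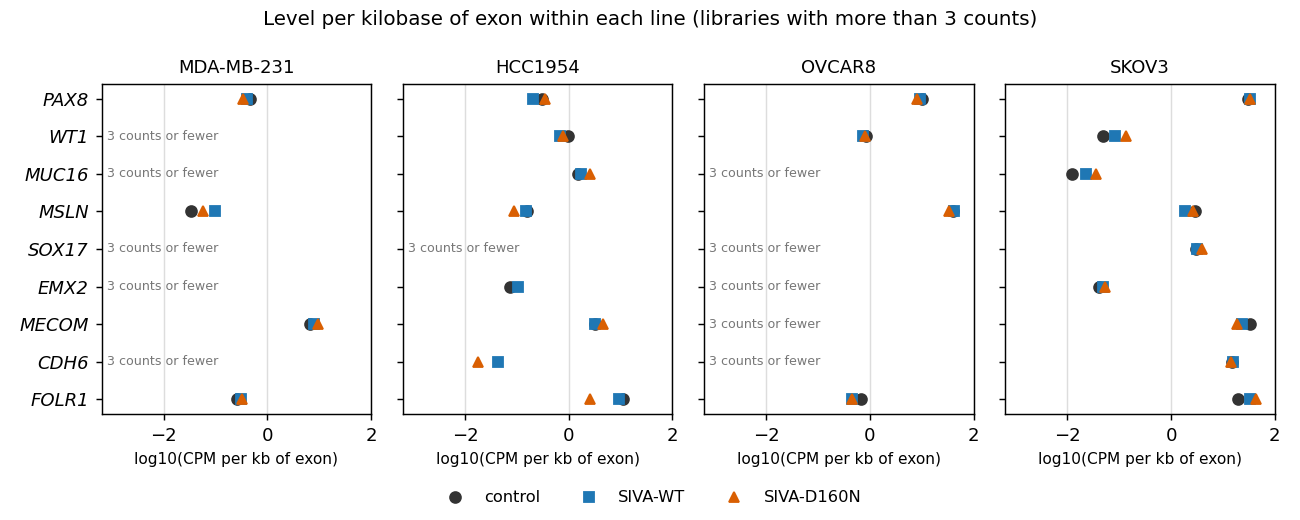
Level per kilobase of exon, as log10 of CPM per kilobase, for each member in each of the 4 lines, with a symbol per condition and only libraries with more than 3 counts drawn. MSLN and PAX8 lead in OVCAR8, MECOM in MDA-MB-231 and FOLR1 in the control and SIVA-WT libraries of HCC1954 (MECOM in its SIVA-D160N library), while in SKOV3 the line means of FOLR1 and PAX8 are 32.4 and 32.3 CPM per kilobase.

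Read by pairs of lines, the calls of the 8 members that passed the filter varied in direction. Between HCC1954 and MDA-MB-231, 4 members were called, all higher in HCC1954 (*WT1*, *MUC16*, *CDH6* and *FOLR1*), where 33% of all 19204 genes were called. OVCAR8 against MDA-MB-231 gave 3 higher (*PAX8*, *WT1* and *MSLN*) and 1 lower (*MECOM*), beside 26.3% of all genes. In SKOV3 against MDA-MB-231 all 8 were called higher, beside 29.6%. OVCAR8 against HCC1954 gave 2 higher (*PAX8* and *MSLN*) and 4 lower (*MUC16*, *MECOM*, *CDH6* and *FOLR1*), beside 34.3%. SKOV3 against HCC1954 gave 6 higher and 2 lower (*WT1* and *MUC16*), beside 32.8%. SKOV3 against OVCAR8, the pair of ovarian lines, gave 6 higher and 2 lower (*WT1* and *MSLN*), beside 31.1%. The median log2 difference of the 8 members in that pair was 6.22, against 0.03 over all genes tested. Since the filter kept genes for being high in any line, these shares are descriptions.

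The question whether the markers as a group mark the ovarian lines was put to the counts summed by line, with 2 ovarian lines against 2 breast lines. In 2 of the 9 members, *PAX8* and *MSLN*, the lowest ovarian library lay above the highest breast library, and this was the case in 7.42% of the 19204 genes that passed the filter by line. No member had all ovarian libraries below all breast libraries, where 5.92% of genes did. In the other 7 members the tissues overlapped. By edgeR's quasi-likelihood test 0 of 19672 genes were called higher (0%) and 0 lower (0%) in the ovarian lines, the smallest FDR being 0.382, so that no member could be called. Without adjustment 823 genes had a p-value under 0.05, and DESeq2 called 573 genes on the same sums. The log2 difference was 5.90 for *PAX8* (standard error 0.88, FDR 0.999) and 7.70 for *MSLN* (standard error 1.80, FDR 0.999), and DESeq2 gave FDR values of 4.97e-07 and 4.01e-05 for them. Over all alternatives the FDR of *PAX8* ran from 4.97e-07 to 1.00 and that of *MSLN* from 4.01e-05 to 1.00.

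For the other members in this fit the sign of the tissue difference turned when a line was left out. *CDH6* was higher in the ovarian lines by 9.36 on the log2 scale (standard error 4.77), *FOLR1* by 1.97 (standard error 2.28) and *MECOM* by 1.08 (standard error 2.98). Without SKOV3 the same differences were -7.07, -2.99 and -15.65. *MUC16* was lower in the ovarian lines, with a log2 difference of -6.30 (standard error 3.99), and this turned to 5.85 without HCC1954. The difference of *WT1* was 0.11 (standard error 2.44), and it was -0.89 without MDA-MB-231 and -2.17 without OVCAR8. *EMX2* stood at -0.59 (standard error 2.18), and it was 3.08 without HCC1954 and 0.42 without OVCAR8. *SOX17* was not kept by the filter of this fit. Fitted differences that rest on lines without counts depend on the prior count and are not folds.

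*PAX8* and *WT1* have antisense partners, which followed opposite patterns. *PAX8-AS1* (ENSG00000189223, chromosome 2, 113235527 to 113267023) is a non-coding RNA whose span lies inside that of *PAX8*, with 1651 bases of exon in common. Its level was 39.0 to 41.7 CPM in MDA-MB-231 and 32.6 to 40.4 CPM in HCC1954, against 1.68 to 2.01 CPM in OVCAR8 and 0.196 to 0.335 CPM in SKOV3. All its ovarian libraries were below all its breast libraries, so the order of the tissues was the opposite of that of *PAX8*. Its log2 difference between tissues was -5.18 (standard error 1.27, FDR 0.999). Between the lines it was called lower in SKOV3 than in OVCAR8 (log2 difference -2.88, standard error 0.22, FDR 4.50e-07), and MDA-MB-231 and HCC1954 had a log2 difference of -0.14 for HCC1954 vs MDA-MB-231 (FDR 0.374).

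*WT1-AS* (ENSG00000183242, chromosome 11, 32435518 to 32458769) starts head to head with *WT1*. It was counted in the 2 lines with the most *WT1*, with 1.24 to 1.44 CPM in OVCAR8 and 0.810 to 1.13 CPM in HCC1954. MDA-MB-231 had 0 counts of *WT1-AS* and SKOV3 at most 1 per library, although SKOV3 had 15 to 45 counts of *WT1*. The library kit kept strand, but the strand setting used in counting is not given in the sources used here, so reads from *PAX8* and *PAX8-AS1*, or from *WT1* and *WT1-AS*, may not have been told apart where their exons overlap.

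**Figure D3:**
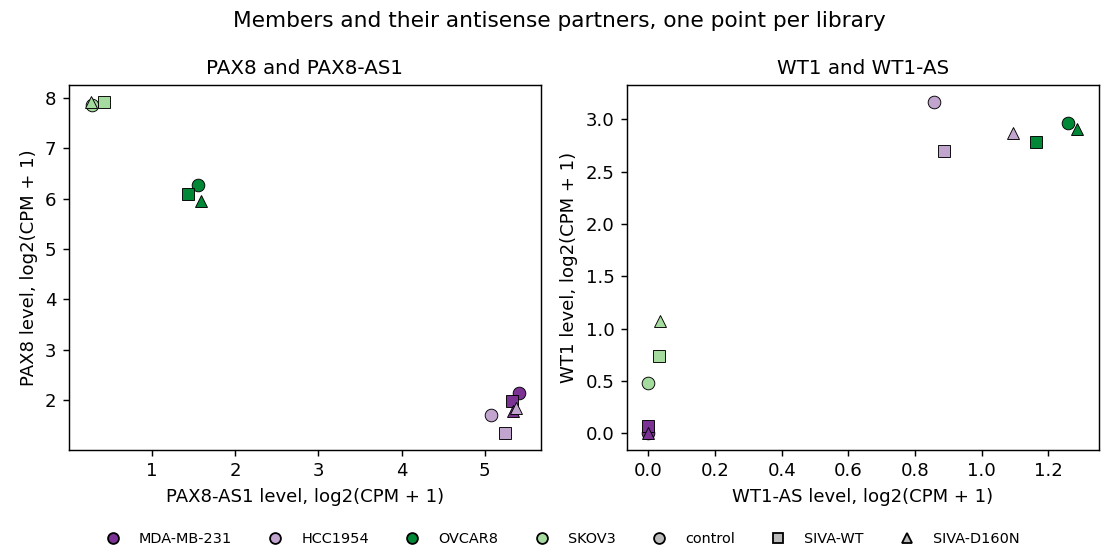
Level of PAX8 against PAX8-AS1 (left) and of WT1 against WT1-AS (right), both as log2(CPM + 1), with 1 point per library, a colour per line and a symbol per condition. PAX8 is high where PAX8-AS1 is low and the libraries of each tissue sit apart, whereas WT1 and WT1-AS are both highest in HCC1954 and OVCAR8.

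Transfectants were also compared with controls, with the 4 lines as replicates (n = 4 per condition) and a term for the line. The study's supplement reports many more genes as different between mutant and control cells than were called here, by edgeR at the same cutoffs. It does not state whether its model had a term for the line. The fit used here is therefore not a repeat of that comparison, and the cause of the gap was not tested. Of the 9 members, 7 passed the filter by condition, and *SOX17* and *EMX2* did not. No member was called in any of the contrasts. For *SIVA-WT* vs control edgeR called 0 of 17211 genes (0%), with 442 genes at an unadjusted p-value under 0.05 and 1 gene called by DESeq2. For *SIVA-D160N* vs control it called 1 gene (0.00581%), with 2443 at an unadjusted p-value under 0.05 and 12 called by DESeq2. For *SIVA-D160N* vs *SIVA-WT* it called 0 genes (0%), with 1165 at an unadjusted p-value under 0.05 and 4 called by DESeq2. The median log2 fold change of the 7 members was -0.11 in *SIVA-WT* and 0.04 in *SIVA-D160N*, where all genes had medians of -0.0043 and -0.010.

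*PAX8*, the member with the smallest standard error, had log2 fold changes of -0.17 (standard error 0.14) in *SIVA-WT* and -0.13 (standard error 0.14) in *SIVA-D160N*. *MUC16* had the largest fold change in *SIVA-D160N* vs control, at 0.94 (standard error 0.25, FDR 0.178). Its level was highest in *SIVA-D160N* and lowest in control in both lines that had more than 1 count. In HCC1954 *SIVA-D160N* was 1.74-fold over control (95% counting interval 1.66 to 1.83), and in SKOV3 it was 2.82-fold over control from 64 against 21 counts (1.70 to 4.87). *SIVA-WT* lay between them, at 1.14-fold in HCC1954 and 1.81-fold in SKOV3. Over the alternatives the FDR of *MUC16* ran from 0.0203, with no filter on low counts, to 1.00, and its fold change stayed below the threshold in each, at 0.34 by DESeq2. The other 6 members tested had an FDR of at least 0.688 in this contrast.

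Within a line each condition has 1 library, so the ratios that follow have no replicate check and their intervals cover counting error only. *FOLR1* differed from control in opposite directions in the 2 lines with the most *FOLR1*. In HCC1954 its level in *SIVA-D160N* was 4.32-fold below control, and in SKOV3 it was 2.30-fold above control (95% counting interval 2.15 to 2.46). *SIVA-WT* showed 0.822-fold in HCC1954 and 1.77-fold in SKOV3. *MECOM* also split by line. *SIVA-D160N* was 1.45-fold over control in MDA-MB-231 (1.38 to 1.53) and 1.43-fold in HCC1954 (1.33 to 1.55), whereas in SKOV3 it was 1.84-fold below control. *SIVA-WT* of SKOV3 lay between, 1.47-fold below control.

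The difference of the *SIVA-D160N* effect between ovarian and breast lines was tested as an interaction, in which 1 of 17211 genes (0.00581%) was called, and it was no member. For *MECOM* the difference was -1.41 on the log2 scale (standard error 0.24, FDR 0.508), and since OVCAR8 had no counts it rested on SKOV3 for the ovarian side. DESeq2 gave an FDR of 0.0192 for it and the fit without a filter one of 0.0166, in a range up to 1.00 over the alternatives. Without SKOV3 no ovarian line has counts of *MECOM*, so its part cannot be tested in that way. For *FOLR1* the difference was 2.02 (standard error 0.74, FDR 0.959), with 0.0290 in the fit without a filter. It was 0.36 without HCC1954 and 0.70 without SKOV3. The interaction was therefore not past the threshold for any member by the test used.

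A ratio of at least 2-fold either way between a transfectant and its own control, on a log2 scale with 2 counts added, was reached by 5 of the 8 members in at least 1 line. For *SIVA-WT* these were *WT1* and *MSLN* in MDA-MB-231, from 0 against 2 and 4 against 10 counts, beside 5.07% of all genes, and *CDH6* in HCC1954, from 3 against 23 counts, beside 4.86%. The *CDH6* ratio was 7.40-fold with a counting interval of 2.24 to 38.5. There were none in OVCAR8, where 3.83% of genes passed, and none in SKOV3, where 6.55% did. For *SIVA-D160N* there were none in MDA-MB-231 (7.09% of genes) or OVCAR8 (4.26%). In HCC1954 *CDH6* and *FOLR1* passed beside 11.3% of genes, and in SKOV3 *WT1*, *MUC16* and *FOLR1* passed beside 9.47%. *WT1* in SKOV3 had 15 counts in control and 45 in *SIVA-D160N*, a ratio of 2.78-fold with a counting interval of 1.52 to 5.37. Most of these ratios came from low counts, and the ratios from the highest counts were those of *FOLR1*.

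**Figure D4:**
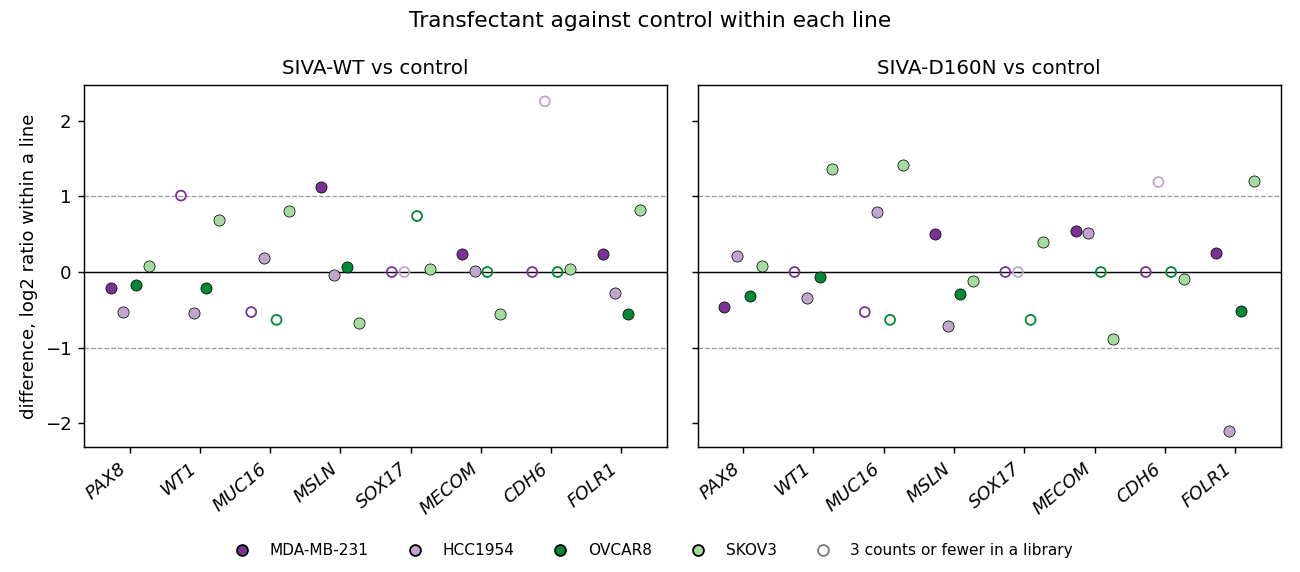
Log2 ratio of SIVA-WT (left) and SIVA-D160N (right) to the control of the same line for the 8 members that passed the filter by line, with a colour per line, open circles where a library had 3 counts or fewer and dashed lines at 2-fold. Most filled points lie within 2-fold, and FOLR1 in SIVA-D160N lies at -2.10 in HCC1954 and at 1.20 in SKOV3.

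The other genes of these pathways were looked at as lists that were chosen from general knowledge with results of these data known. Their levels are means of the 3 libraries of a line unless a range is given. Between the tissues 0 of all 19672 genes tested were called (0%). Counts of 0 called between the tissues, here and in the lists below, were therefore fixed in advance and are not read. Of 15 further genes of Müllerian duct development, 9 were tested between the tissues and 0 were called, with a median log2 difference of 0.85 against -0.01 over all genes. *LHX1*, a homeobox gene needed for the duct, had 200 CPM in SKOV3 (SD 5.17, n = 3), 5.92 CPM in HCC1954, 1.66 CPM in OVCAR8 and 0 counts in MDA-MB-231. *WNT7A*, a signal of the duct epithelium, had 178 CPM in SKOV3 (SD 3.93, n = 3), 0 counts in HCC1954 and OVCAR8 and at most 0.0220 CPM in MDA-MB-231. *WNT5A* was counted in all lines, from 2.55 CPM in OVCAR8 to 22.8 CPM in HCC1954. In MDA-MB-231, 10 of the 15 genes had 0 counts. More than 3 counts in each library were seen for 9 in OVCAR8, 7 in HCC1954, 6 in SKOV3 and 3 in MDA-MB-231. Of 12 tested between lines, SKOV3 against OVCAR8 gave 5 called higher and 5 lower, beside 31.1% of all genes. SKOV3 against HCC1954 gave 4 higher and 4 lower, beside 32.8%.

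The summed level of 18 other ovarian carcinoma antigens was highest in a breast line, as the level of *MUC16* was. This sum was 4096 to 4544 CPM in HCC1954, 349 to 689 CPM in SKOV3, 112 to 135 CPM in OVCAR8 and 65.2 to 66.9 CPM in MDA-MB-231. Not every gene followed the sum. HCC1954 had 0 counts of 2 of the 18, *WFDC2* and *KLK11*. *WFDC2*, named after its values were seen, was counted in each of the other lines, and *KLK11* in none. *CD24*, a surface glycoprotein, had 1907 CPM in HCC1954, 179 CPM in SKOV3, 85.5 CPM in OVCAR8 and 0.0958 CPM in MDA-MB-231. *KLK5* and *KLK6*, which encode secreted proteases, had 716 and 627 CPM in HCC1954 and 0 counts in the other lines. Between HCC1954 and MDA-MB-231, 13 of the 14 genes that passed the filter were called higher in HCC1954, beside 33% of all genes. Between OVCAR8 and HCC1954 13 were called lower in OVCAR8 and 1 higher, beside 34.3% of all genes. The latter was *CLDN6*, a claudin, with a log2 difference of 2.12 (FDR 0.00111), named after its values were seen. Between the tissues 0 of the 9 tested were called.

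The list of 10 genes of tubal secretory and ciliated cells was led by *KRT7*, a keratin of simple epithelia, at 2399 CPM in HCC1954, 453 CPM in OVCAR8, 138 CPM in MDA-MB-231 and 11.8 CPM in SKOV3. *CAPS*, of ciliated cells, was highest in HCC1954 at 13.6 CPM, and *PGR*, the progesterone receptor, was counted in OVCAR8 at 12.5 CPM and at no more than 0.0793 CPM in any other library. Between the tissues 0 of the 6 tested were called, with a median of -1.17. Of 6 genes of folate uptake and retention other than *FOLR1*, 0 of the 4 tested were called. *FPGS*, which encodes the enzyme that retains folate in the cell, had 47.8 to 139 CPM as line means. *SLC19A1*, the reduced folate carrier, had 49.97 CPM in HCC1954, 44.7 CPM in OVCAR8, 22.9 CPM in SKOV3 and 0.0325 CPM in MDA-MB-231, so that MDA-MB-231 was the lowest line for both the carrier and *FOLR1*.

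Of 13 paralogs of the members, 5 were tested between the tissues and 0 were called. *EGR1*, an early-response factor related to *WT1*, ran from 13.2 to 321 CPM within MDA-MB-231 and from 144 to 752 CPM within SKOV3. *SOX7*, a close relative of *SOX17*, had 12.1 CPM in OVCAR8 and 9.56 CPM in SKOV3, against 0.358 CPM in MDA-MB-231 and 0.0905 CPM in HCC1954. *CDH18*, a relative of *CDH6*, had 10.7 CPM in SKOV3 and 6.21 CPM in MDA-MB-231, and no more than 0.137 CPM in the other lines. The 3 antisense partners gave 2 genes tested and 0 called.

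Markers of other cell types were read in the same way, since *WT1* and *MSLN* also belong to mesothelium. The 15 breast epithelium genes summed to 389 to 522 CPM in HCC1954, and to 18.1 to 24.5 CPM in MDA-MB-231, 29.9 to 39.0 CPM in OVCAR8 and 33.7 to 52.4 CPM in SKOV3. *FOXA1* had 117 CPM and *EHF* 82.4 CPM in HCC1954, and no more than 5.34 and 0.154 CPM in any library of another line, whereas *TRPS1* was counted in all lines, at 9.02 to 40.01 CPM. *PGR*, which is also on this list, went the other way, at 12.5 CPM in OVCAR8 and at most 0.0793 CPM in any library of another line. MDA-MB-231, OVCAR8 and SKOV3 each had 0 counts of 5 of the 15, and HCC1954 of 3. Between the tissues 0 of the 9 tested were called, with a median of -4.89. The 8 mesothelium genes gave 0 of 6 called. *PDPN* had 42.5 CPM in OVCAR8, 10.7 CPM in SKOV3 and 0 counts in the breast lines, *KRT5* had 405 CPM in HCC1954 and at most 0.636 CPM elsewhere, and *CALB2*, the calretinin gene, had 25.9 CPM in MDA-MB-231, 23.6 CPM in HCC1954, 1.60 CPM in OVCAR8 and 0.0238 CPM in SKOV3. Of the 8 genes of ovarian stroma and granulosa cells, 0 of 3 tested were called, and *AMH* was at 6.57 to 8.24 CPM in all lines, *FOXL2* at 3.58 CPM in OVCAR8 and at most 0.0920 CPM elsewhere, and *INHA* at 0.179 to 1.53 CPM. The 4 immune and fibroblast genes summed to at most 1.29 CPM in any library, with *PTPRC* at 0 in the libraries of 3 lines, *LUM* at no more than 0.740 CPM and *PDGFRA* at no more than 0.423 CPM. Of these 4 genes 1 was tested and 0 were called. The part of any such cells in the levels of *WT1* and *MSLN* was not tested.

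The members differed in how many genes shared their profile over the 12 libraries, by Pearson correlation of log2(CPM + 1). These libraries come from 4 lines, so the values describe the lines and carry no p-value. *CDH6* had 154 genes at 0.99 or more and *SOX17* 131, and the 2 genes correlated with each other at 0.996. Both passed the filter through SKOV3 and were near the limit of counting elsewhere, so these values only restate that they were high in SKOV3. *MUC16* had 26 such genes, led by *UGT1A1*, *KRT16* and *RP11-196G18.3*. *PAX8* had 20, led by *HOXB4*, *CTD-2354A18.1* and *HOXD8*, and *MSLN* had 15, led by *PWAR6*, *CCNYL2* and *ADAMTS2*. *WT1* (*SLC20A2*, *ITPA* and *ANXA8*) and *MECOM* (*GOLIM4*, *PTGR2* and *RB1*) had 4 each. *FOLR1* had 0, its closest genes being *FTH1* at 0.985, *ADCY6* and *RP11-54O7.3*. Closest to *SOX17* were *CXADRP1*, *PCDHA2* and *ZNF729*, and to *CDH6* *RP11-268G12.3*, *RP11-407A16.3* and *ZNF727*. Between members, *PAX8* correlated with *SOX17* at 0.76, with *CDH6* at 0.73 and with *MSLN* at 0.71, and with *MECOM* at -0.06. *MECOM* and *MSLN* had -0.74 and *PAX8* and *MUC16* -0.50.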

How the data were processed

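The authors prepared stranded mRNA libraries (TruSeq) from 12 cultures and aligned paired-end reads to GRCh38. The submitters' processing notes name FastQC, STAR 2.5.3a and edgeR. The annotation release and the strand setting of the counting are not given in the sources used here. The deposited values used here are raw counts per gene, without normalization. A deposited table of CPM values was not used. All count columns were matched to libraries by name and 0 were left over.

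The members and all gene lists were chosen with earlier results of these data known. All 9 members are named, with the 3 genes most correlated with each member that passed the filter by line, the 3 genes with the highest mean CPM of each companion list, and the antisense partners. The values of 1 gene of these lists are not reported here. Coordinates and promoters are from RefSeq (GRCh38.p14), matched by symbol. Exon lengths are from GENCODE v44 lifted to GRCh37, matched by gene ID.

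Counts were fitted with edgeR 4.0.16 in R 4.3.3 (TMM, filterByExpr, glmQLFit, glmQLFTest). The condition fit had terms for line and condition over all 12 libraries, with lines as replicates. The fit by line had terms for line and condition. Its p-values measure the spread between the 3 libraries of a line, 1 per condition, after a condition effect shared by the lines is removed. This remaining spread was pooled over all lines. The tissue fit used counts summed over the libraries of each line, 2 lines against 2. Calls needed an FDR under 0.05 together with a log2 fold change of 1.5 or more in size (FDR alone for the interaction). The standard errors given are approximate. Each is the size of the log2 difference divided by the square root of the F statistic of its test. The line is the replicate block of the condition fit because each trio of libraries comes from the same cell line. Deviations from the condition means correlated at 0.932 to 0.978 within a line and at -0.470 to -0.149 between lines. Centring on the mean of the lines makes the values between lines negative on average, so those are not read. Line folds are ratios of mean CPM, and where the lower line had at most 3 counts in each library they are bounds against the highest 3-count limit of its libraries. Counting intervals are exact binomial at 95%. The fits were tested on simulated data. For the tissue fit the simulated lines differed far less than the real ones, so that test does not show how the fit performs here. Alternatives were other size factors, other filters, DESeq2 1.42.0, no block, control libraries alone, libraries as if independent, and lines or libraries left out. Figures were drawn with matplotlib 3.10.9.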

Additional observations from a re-analysis of the deposited data

Results flagged for a closer look

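In 11 of 43 sets of 4 lines, the value of 1 line stood apart from the other 3 by Dixon's criterion, a criterion that flags about 2.15 of 43 independent sets by chance. These sets reuse the same 4 lines, and 6 of the 11 are *SOX17* and *CDH6* levels in SKOV3, the line through which both genes passed the filter, so the number is not read against chance. *MUC16* in HCC1954 was 65.6 CPM in control and 74.9 CPM in *SIVA-WT*, with the other lines at no more than 0.555 and 1.01 CPM. *SOX17* in SKOV3 was 7.08, 7.31 and 9.35 CPM in control, *SIVA-WT* and *SIVA-D160N*, with the other lines at no more than 0.0790 CPM. *CDH6* in SKOV3 was 190, 196 and 179 CPM in the same order, with the other lines at no more than 0.529 CPM. Among log2 ratios to control, *CDH6* in HCC1954 stood apart at 2.26 in *SIVA-WT* and 1.19 in *SIVA-D160N*, from 3 control counts. *SOX17* in OVCAR8 stood apart at 0.74 in *SIVA-WT*, from 1 and 3 counts. For these ratios, MDA-MB-231 and OVCAR8 had 0 counts of *CDH6*, and both breast lines had 0 counts of *SOX17*. Their ratios were thus 0 by construction, which makes a flag easy to reach, and the flags are not read further.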

How the results depend on the processing

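With no filter on low counts, the number of genes called was 10 for *SIVA-WT* vs control, 172 for *SIVA-D160N* vs control, 59 for *SIVA-D160N* vs *SIVA-WT* and 101 for the interaction. DESeq2 gave 1, 12, 4 and 12 in the same order, and 573 for ovarian vs breast lines, where the 12 libraries taken as independent gave 1176. With no replicate block 0 genes were called for *SIVA-D160N* vs control, and the log2 fold changes were -0.13 for *WT1*, -0.43 for *MECOM*, -0.091 for *CDH6* and 0.59 for *FOLR1*, each of the opposite sign to the fit with the block. With the control libraries alone the tissue difference of *WT1* was -0.16. The cause of these shifts was not tested. Leaving out 1 line at a time gave 0 to 2 genes for *SIVA-D160N* vs control (0 without MDA-MB-231 or SKOV3, 2 without HCC1954 or OVCAR8) and 0 to 1 for the interaction (0 without SKOV3). The log2 fold changes in *SIVA-D160N* then ran from -0.18 to 0.53 for *MECOM*, -0.090 to 0.048 for *CDH6*, -1.04 to 0.59 for *FOLR1* and -0.20 to 0.47 for *WT1*. The tissue differences ran from -2.17 to 7.70 for *WT1*, -12.02 to 5.85 for *MUC16*, -6.79 to 3.08 for *EMX2*, -15.65 to 2.09 for *MECOM*, -7.07 to 16.45 for *CDH6* and -2.99 to 5.76 for *FOLR1*. Between OVCAR8 and HCC1954, leaving out 1 condition moved *WT1* from -0.13 to 0.082. Where both lines of a pair had 3 counts or fewer, as MDA-MB-231 and OVCAR8 had for *MUC16*, no difference was detectable at this depth. The direction of *PAX8* and *MSLN* between tissues was the same under every alternative run. This was fixed in advance, since every ovarian library lay far above every breast library for both genes, so it is no check.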
